A study of Oryza sativa Japonica Group with 6 samples.

Results

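MADS-box transcription factors were followed in developing rice seed, as 31 genes of 17905 that a single-gene probe set of the array measured. A gene was a member when its symbol or a synonym, with or without a leading Os, was MADS followed by a number, and of several probe sets for a gene the brightest stood for it. The 31 genes had 39 probe sets, and 4 genes had more than 1. Seeds of Oryza sativa Japonica Group were hybridised to Affymetrix arrays, 3 from plants whose containers received 400 mg of ammonium chloride when the panicles headed (additional NH4Cl) and 3 from control plants without it. Both groups shared a fertilization at planting and a later one, 37 days after germination, and the labels name no cultivar, mutation or transgene. The additional NH4Cl samples were taken 15 days after flowering, and for the control samples the labels give no day. Seeds came from 6 plants in all, material was pooled before extraction, and the labels do not say which plant gave which replicate, so p-values measure only how far these samples spread, which may be technical.

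MADS-box proteins bind DNA through a conserved domain and work as dimers and larger complexes. In the flower, combinations of classes A to E set organ identity: A and E genes the outer organs and the meristem, B genes lodicules and stamens, C genes stamens and carpels, and D genes the ovule. The B-sister genes act in the ovule and seed, and rice MADS29 is known for its part in the breakdown of maternal seed tissue that makes room for the endosperm. Outside these classes lie the AGL6-like genes, regulators of flowering time (SOC1-like, SVP-like) and genes of root and nitrate responses (AGL17-like, AGL12-like).

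The values are as deposited and were read as log2 expression. They differed very little between arrays: the SD over the 6 arrays had a median of 2.25 millionths of a log2 unit over all 57194 rice probe sets and of 22.3 millionths over the 31 MADS-box genes. The SD tended to be larger above the highest reporter control. Its median there was 74.5 millionths for the members and 27.7 for rice probe sets, and 1.36 and 1.14 for the rest. Among the members it did not rise steadily with signal. MADS8, the brightest at 10.15, had an SD of 22.3 millionths, and MADS27 at 7.05 one of 5346. A difference between groups is therefore not read as a fold change of RNA. It is given in millionths of a log2 unit and in within-group SDs of the same probe set. Array medians lay between 5.71845 and 5.71846 with additional NH4Cl and between 5.71852 and 5.7186 in control, so the groups did not overlap. Median centring removes this shift and adds about 123 millionths to every difference. The part of the shift in the differences of the MADS-box genes was not tested. In bulk seed, fewer cells of a type and less RNA per cell cannot be told apart. Markers of the endosperm were high, 7 of 7 measured lying above every reporter control with means from 9.88 to 13.21, as were 5 of 5 of the embryo and aleurone, from 7.24 to 12.83. The summed linear signal of the endosperm markers ranged from 42412 to 42418 with additional NH4Cl and from 42430 to 42436 in control, so the groups did not overlap. As single genes, 4 of the 7 were higher and 3 lower with additional NH4Cl. The starch synthase gene SSI differed by -28906 ± 3850 millionths (-6.13 SDs, unadjusted p of 0.000876 and adjusted p of 0.142 in limma), a difference larger in size than that of any MADS-box gene. The other endosperm markers did not follow it, with differences from -1 to 2.92 millionths. The part of these markers in the differences of the MADS-box genes was not tested. The tissue label of developing seed was followed, though the extraction label speaks of seedlings.

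Signal above background was seen for 18 of the 31 MADS-box genes, and 13 of these belonged to the floral organ classes A to E. Background was taken as the highest mean among 64 reporter control probe sets, which match no rice gene, at 6.07. Of all rice probe sets 33.1% lay above it. Of the 17905 genes, each at its highest probe set, 66.8% did, beside 58.1% of the MADS-box genes. Of the 16 genes of classes A to E, 13 lay above it, and of the 11 genes of the SOC1-like, SVP-like, AGL17-like and AGL12-like classes, 2 did. With the AGL6-like genes added to the latter it was 4 of 13. The members nearest the limit were MADS17 at 6.56, just above, and MADS3 at 5.81, just below. Probe sets differ in how well they bind, so the order of signals is a description of the arrays and need not be the order of the RNA amounts, and no test was made of it. Of the 18, MADS7, MADS22, MADS21, MADS15, MADS13 and MADS17 had probe sets that can hybridise with several transcripts, which may be of the same gene. Each step between neighbours in the order among the 18 genes exceeded the SD of both genes over the 6 arrays.

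**Figure D1:**
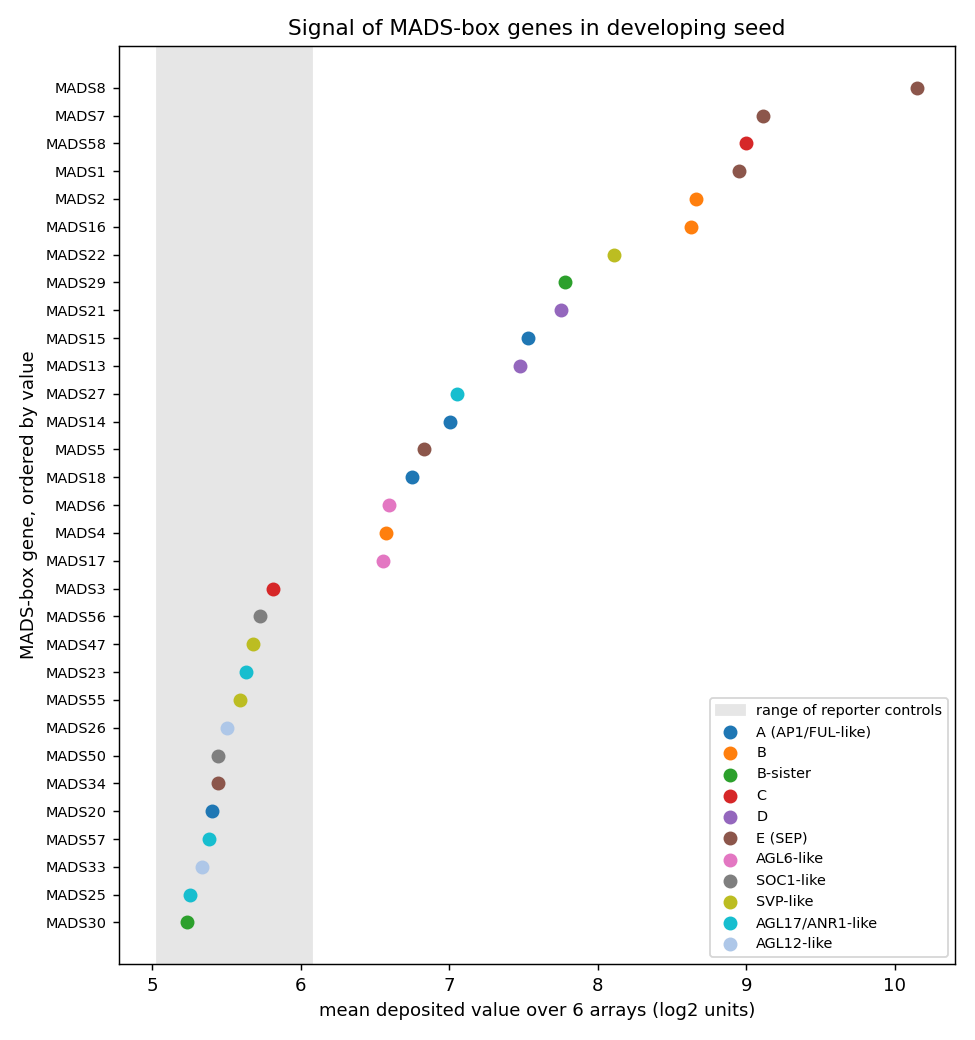
Mean deposited value (x axis, log2 units) of the 31 MADS-box genes, each a point coloured by class, with the range of the 64 reporter controls shaded. The 18 genes to the right of the shading run from MADS17 at 6.56 to MADS8 at 10.15, and 13 lie inside it.

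Class E genes, partners that the other classes need, held the ranks 1, 2 and 4 by signal. MADS8 and MADS7, both related to SEPALLATA genes of Arabidopsis, stood at 10.15 and 9.11, and MADS1, which shapes the lemma and palea, at 8.95. MADS8 lay at the percentile 99.1 of all rice probe sets. MADS5 was lower, at 6.83, and MADS34, a gene of inflorescence branching, stood inside the reporter range at 5.44. On the additional NH4Cl arrays MADS8 deviated from its 6-array mean by -6.60, 34.2 and -10.4 millionths, and on the control arrays by -10.4, 19.5 and -26.2. Replicate 2 was the highest of each group and the groups overlapped. The same deviations of MADS7 were -76.6, 236 and -357 with additional NH4Cl and -23.4, 293 and -71.2 in control. For MADS1 they were 185, 1396 and -461 with additional NH4Cl and -1302, -230 and 413 in control, so 1 array of each group stood far out and the groups overlapped. None of the 5 class E genes reached an unadjusted p of 0.05 with limma, and their differences ran from -132 (MADS7) to 746 (MADS1) millionths.

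Class B genes, which specify lodicules and stamens, were all above background. MADS2 and MADS4, related to PISTILLATA, had means of 8.66 and 6.58, and MADS16, related to APETALA3 and also known as SPW1, of 8.63. MADS2 deviated by -3.07, 12.0 and -34.5 millionths with additional NH4Cl and by -8.87, 27.2 and 7.30 in control. For MADS16 the deviations were -1.14, 23.4 and -10.2 with additional NH4Cl and -23.1, 8.67 and 2.39 in control. In both genes replicate 2 was the highest array of each group, and the groups overlapped. The differences were -17.1 ± 17.2 millionths (SE, n = 3 per group) for MADS2 and 8.04 ± 13.99 for MADS16, both smaller than their own errors. MADS4 differed by -3.37 ± 2.42.

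Markers of the anther were mostly low in the same arrays, and those of the carpel and ovule were divided. Of 6 measured markers of the anther, 1 lay above the reporter range, the receptor kinase gene MSP1 at 7.84, and the others had means between 5.31 and 5.96. Of 4 measured markers of the carpel and ovule, 2 lay above the reporter range, MADS58 and MADS13, while MADS3 and the carpel gene DL, at 5.62, did not. All but DL are themselves members, so this list is not separate from the class C and D signal. The summed linear signal of the anther markers ranged from 472.0 to 472.3 with additional NH4Cl and from 472.1 to 472.2 in control. The part of flower remnants in the class B, C and E signal was not tested.

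Class C and D genes, of the stamen, carpel and ovule, gave 3 signals above background and 2 of the 3 smallest p-values among the members. MADS58 had a mean of 9.001, while MADS3, its close relative, stood at 5.81 inside the reporter range. MADS21 and MADS13, the ovule genes, had means of 7.75 and 7.48. MADS58 deviated by -199, 120 and -108 millionths with additional NH4Cl and by -22.9, 273 and -62.9 in control. MADS21 deviated by -2.60, 39.9 and -91.1 with additional NH4Cl and by 26.9, 119 and -92.2 in control. In both the groups overlapped, with replicate 2 again the highest of each group.

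MADS13 was the member with the smallest p. Its deviations were 94.0, 93.6 and 43.3 millionths with additional NH4Cl and -68.6, -28.4 and -134 in control. All 3 additional NH4Cl arrays lay above all 3 control arrays. The difference was 154 ± 35.1 millionths (SE, n = 3 per group), or 3.59 within-group SDs, with an unadjusted p of 0.00759 and an adjusted p of 0.245 in limma. After quantile normalization it was 400 millionths, with an unadjusted p of 0.0876 and an adjusted p of 0.311 in limma. Median centring gave 276 millionths, but it raises every difference by about 123 and cannot turn a positive one. The probe set of MADS13 is of a kind that can hybridise with several transcripts, which may be of the same gene.

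For MADS3 the deviations were 217, -24.4 and 272 millionths with additional NH4Cl and -207, -157 and -99.8 in control. Here too the groups did not overlap. The difference of 310 ± 96.2 millionths (2.63 SDs) had an unadjusted p of 0.0232 and an adjusted p of 0.351 in limma. It was positive after quantile normalization, with an unadjusted p of 0.0538 in limma, and median centring could not turn its sign. The signal of MADS3 lay below the highest reporter control, so it need not come from MADS3 RNA. Its probe set, too, can hybridise with several transcripts, which may be of the same gene. The unadjusted p rose above 0.05 when any of additional NH4Cl replicates 1 and 3 or control replicates 1 and 2 was left out, with a highest value of 0.0739 in limma.

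The B-sister gene MADS29 was the member ranked 8 by signal, with a mean of 7.78 at the percentile 90.8 of rice probe sets. Its deviations were -54.1, 11.7 and -76.7 millionths with additional NH4Cl and 31.4, 106 and -17.9 in control. The additional NH4Cl arrays tended to be the lower ones, but replicate 2 of that group lay above control replicate 3, so the groups overlapped. The difference of -79.4 ± 44.6 millionths (-1.45 SDs) had an unadjusted p of 0.127 and an adjusted p of 0.610 in limma. It was 0 after quantile normalization and 43.1 millionths after median centring. Quantile normalization sets a value by its rank on the array, so a probe set that keeps its rank has no difference left. MADS30, the other B-sister gene measured, had the lowest mean of all members, 5.23. Its deviations were 2.498, 0.216 and -0.680 with additional NH4Cl and 2.05, -2.19 and -1.90 in control, with overlapping groups. MADS31 was not analysed here.

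**Figure D2:**
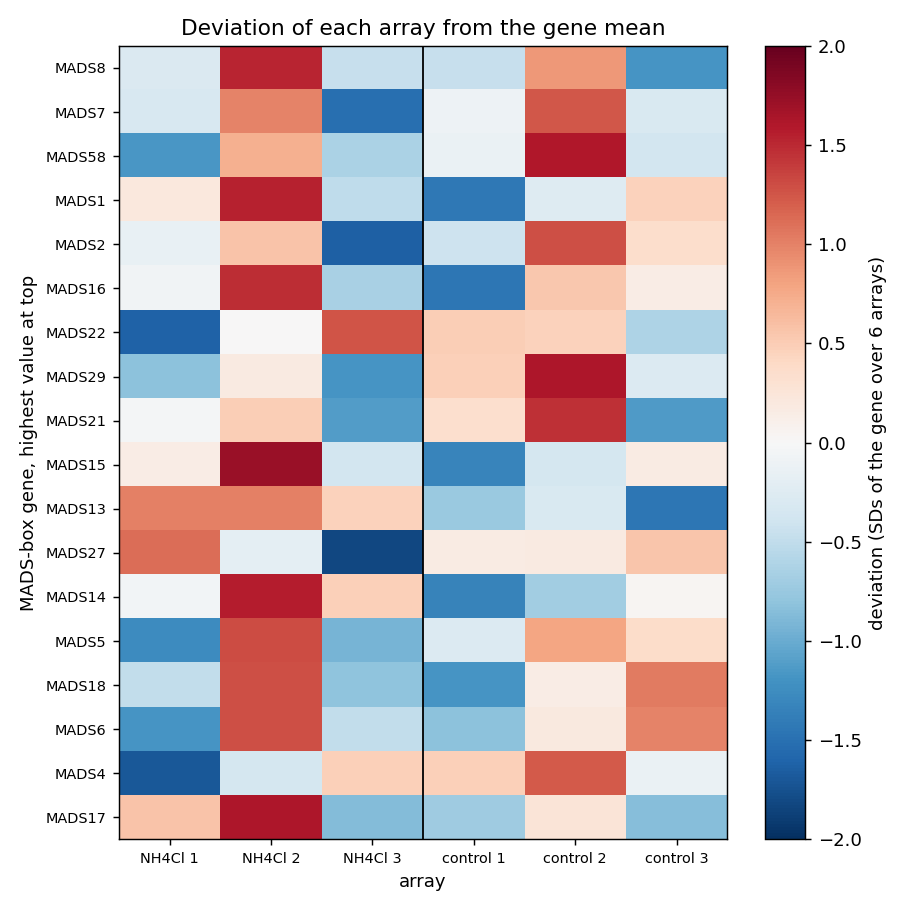
Deviation of each array (columns, 3 additional NH4Cl then 3 control) from the gene's mean, in SDs of the gene over 6 arrays (colour), for the 18 MADS-box genes above the reporter range. Replicate 2 is the highest of the additional NH4Cl arrays in 14 of the 18 genes and of the control arrays in 11, and only MADS13 has all additional NH4Cl arrays above all control arrays.

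The members above background often had the same arrays high or low within each group. Replicate 2 was the highest additional NH4Cl array for 14 of the 18 genes and the lowest for 0, and replicate 3 was the lowest for 12. Among all rice probe sets above the reporter range, replicate 2 was the highest additional NH4Cl array for 26.6% and replicate 3 the lowest for 36.3%. In control, replicate 2 was the highest for 11 of 18 genes and the lowest for 0, beside 35.4% and 32.6% of rice probe sets. Genes with replicate 2 highest in both groups came from classes B, C, D and E and the B-sister and AGL6-like classes, 9 genes in all, where 11.5% of rice probe sets above the reporter range had replicate 2 highest in both groups. The members are not independent of each other across arrays, and no test was made of the pattern.

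Class A genes act in the floral meristem, and MADS14 and MADS15 are switched on in the shoot apex by the florigen Hd3a. They had signals of 7.53 for MADS15, 7.005 for MADS14, 6.75 for MADS18 and 5.40 for MADS20. MADS15 deviated by 64.4, 756 and -162 millionths with additional NH4Cl and by -577, -152 and 70.005 in control. For MADS14 the deviations were -29.8, 821 and 248 with additional NH4Cl and -699, -359 and 19.4 in control. Both genes were highest on additional NH4Cl replicate 2 and lowest on control replicate 1, and the groups overlapped. The differences were 439 ± 335 millionths for MADS15 and 693 ± 325 for MADS14, with unadjusted p of 0.232 and 0.0813 in limma (adjusted p of 0.734 and 0.527). MADS18 differed by -0.0133 ± 61.5.

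MADS14 and MADS15 each had 4 probe sets, and all 8 had a higher mean with additional NH4Cl, where 50.4% of all rice probe sets did. Median centring could not change the sign of the 8, since it adds about 123 millionths to every difference. After quantile normalization 7 of the 8 were higher and 1 had no difference. Groups did not overlap in 3 of the 8, none of them the brightest of its gene, beside 17.4% of all rice probe sets. A MADS14 probe set with a mean of 6.27 differed by 297 ± 47.5 millionths (5.11 SDs, unadjusted p of 0.00187 and adjusted p of 0.170 in limma). After quantile normalization that difference was 71.7 millionths with an unadjusted p of 0.500 in limma. Another at 5.57 differed by 1004 ± 284 (2.89 SDs, unadjusted p of 0.0168), and one of MADS15 at 5.98 by 685 ± 261 (2.14 SDs, unadjusted p of 0.0448 in limma). These 3 probe sets can hybridise with several transcripts, the 2 genes are close relatives, and the probe sets of a gene measure the same RNA, so the 8 are not separate observations. The last 2 also lay below the highest reporter control, as did a MADS14 probe set at 5.56 and a MADS15 one at 5.65. These dim ones differed by 2.32 ± 2.86 and 1.605 ± 2.33 millionths, less than their errors. The 3 with groups that did not overlap were singled out after their values were seen.

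**Figure D3:**
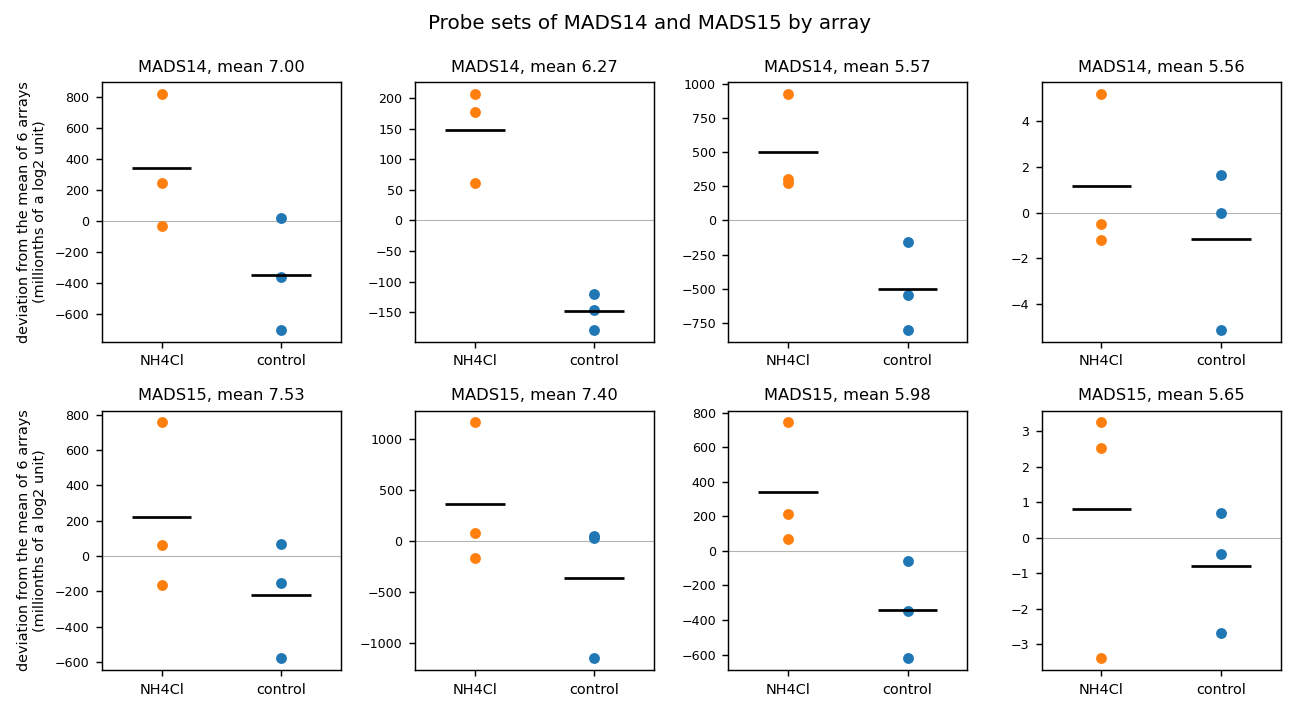
Deviation of each array from the probe set's mean (y axis, millionths of a log2 unit, a scale for each panel) for the 4 probe sets of MADS14 (top) and of MADS15 (bottom), ordered by mean, with group means as bars (n = 3 per group). The additional NH4Cl mean is above the control mean in all 8 panels, beside 50.4% of all rice probe sets. The points of the groups are separate in 3, beside 17.4%.

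Regulators of flowering that act with these genes were partly measured, 6 of 14 listed, and 5 of the 6 were higher with additional NH4Cl as deposited, of which FZP turned negative and DL had no difference left after quantile normalization. Over all rice probe sets 50.4% were higher. None of the 6 passed the adjusted threshold in limma, and 3 had an unadjusted p under 0.05 and groups that did not overlap, beside 11.1% and 17.4% of rice probe sets. Hd3a, with a mean of 6.61, differed by 3551 ± 516 millionths (5.61 SDs, unadjusted p of 0.00127 and adjusted p of 0.156 in limma) with groups that did not overlap. Hd1, a regulator of Hd3a by day length, differed by 164 ± 34.9 (3.83 SDs) at a mean of 5.66. RFL, a relative of LEAFY, differed by -8.95 ± 2.00 (-3.66 SDs) at 5.54, a difference that was positive after quantile normalization and median centring. Hd1 and RFL lay below the highest reporter control. Markers of the green pericarp were higher for 4 of 4 as deposited, of which LIR1 turned negative and CAB2R and PETE had no difference left after quantile normalization, with a summed linear signal ranging from 4414 to 4416 with additional NH4Cl and from 4412 to 4415 in control. Their part in the differences of Hd3a, MADS14 and MADS15 was not tested.

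AGL6-like genes, which act in floral organs and the meristem, lay just above background, MADS6 at 6.60 and MADS17 at 6.56. Their differences were -8.46 ± 29.9 and 41.9 ± 38.1 millionths. The SOC1-like genes of flowering time, MADS50 and MADS56, stood at 5.44 and 5.72, inside the reporter range. Among the SVP-like genes, linked to brassinosteroid responses, MADS22 had a mean of 8.11, while MADS47 and MADS55 stood at 5.68 and 5.59. MADS22 deviated by -1740, 12.5 and 1353 millionths with additional NH4Cl and by 535, 498 and -659 in control. Its additional NH4Cl arrays lay on both sides of all control arrays, and the difference of -249 ± 978 was far inside that spread.

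The AGL17-like genes include regulators of root responses to nitrate, and 1 of the 4 measured, MADS27, lay above background at 7.05. It varied more over the 6 arrays than any other member, with an SD of 7897 millionths with additional NH4Cl and 1192 in control. Additional NH4Cl replicate 1 stood at 6007 and replicate 3 at -9758, on opposite sides of the control arrays at 876, 946 and 2975, with replicate 2 at -1044. The difference of -3197 ± 4611 millionths, the largest in size among the 31 genes with all arrays, was smaller than its error. Its sign and size rested on single arrays: without additional NH4Cl replicate 3 it was 883 millionths, below MADS1 at 1163, and without replicate 1 it was -7000. The other probe set of MADS27, at a mean of 5.93, lay below the highest reporter control. There the difference was -191 ± 122 millionths (unadjusted p of 0.166 in limma), and from -304 to -135 with 1 array left out. That probe set can hybridise with several transcripts, which may be of the same gene. MADS23 stood at 5.63 and MADS25, a nitrate-responsive root gene, at 5.25.

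MADS57, a gene of tillering, was the only member whose additional NH4Cl arrays all lay below the control arrays. Its deviations were -0.883, -2.23 and -0.895 millionths with additional NH4Cl and 0.505, 1.86 and 1.64 in control. The difference of -2.67 ± 0.614 millionths (-3.55 SDs) had an unadjusted p of 0.00961 and an adjusted p of 0.265 in limma. It was 0 after quantile normalization, as for any probe set that keeps its rank, and 120 millionths after median centring, which raises every difference. The mean of 5.38 lay well inside the reporter range. The AGL12-like genes MADS26 and MADS33 stood at 5.504 and 5.33.

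Over all 31 genes, additional NH4Cl against control gave no called member. With limma 0 of 31 had an adjusted p under 0.05, where 0.00699% of all rice probe sets did, and the smallest adjusted p was 0.245. A test with unequal variances also called 0. At an unadjusted p under 0.05 there were 3 (9.68%), beside 11.1% of rice probe sets. They were MADS13 and MADS3, higher with additional NH4Cl as 5.09% of rice probe sets were at that p, and MADS57, lower as were 5.96%. Groups did not overlap in the same 3 genes, beside 17.4% of rice probe sets, of which 8.42% were higher and 8.99% lower with additional NH4Cl. Among the 18 members above the reporter range, 1 had groups that did not overlap and 1 an unadjusted p under 0.05, MADS13 in both cases, where 24% and 18.3% of the rice probe sets above that range did. Of these 18 members 7 were higher as deposited, beside 48.9% of those rice probe sets.

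Of the members 13 were higher and 18 lower with additional NH4Cl, where 50.4% of rice probe sets were higher and 49.6% lower, and the split was 15 higher, 8 lower and 8 with no difference after quantile normalization and 27 higher and 4 lower after median centring. A member kept the sign it had as deposited in 15 of 31 cases under the first scaling and in 17 under the second. The first gives no difference where a probe set keeps its rank on all arrays, and the second raises every difference by about 123 millionths. The median difference of the members was -0.231 within-group SDs, beside 0.0101 for all rice probe sets. In size regardless of sign, the medians were 0.716 SDs for the members and 0.742 for all rice probe sets. These medians describe the list and were not tested.

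**Figure D4:**
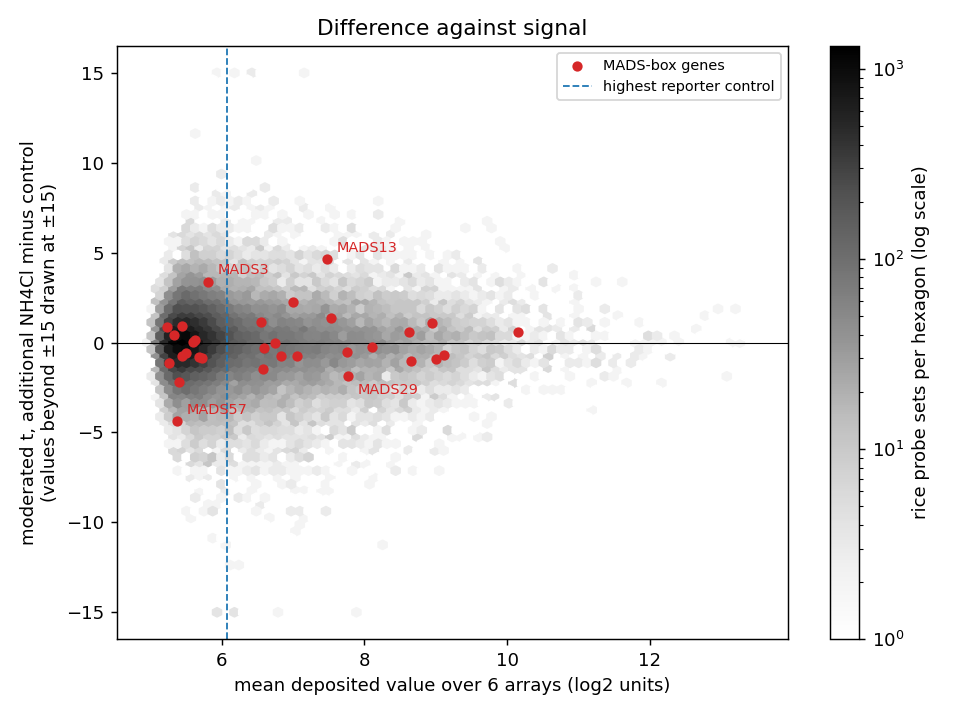
Moderated t of additional NH4Cl minus control (y axis) against mean deposited value (x axis, log2 units) for all 57194 rice probe sets (grey, hexagons shaded by number) and the 31 MADS-box genes (red). The members lie within the cloud of other probe sets, with MADS13 and MADS3 highest and MADS57 lowest among them.

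MADS14 and MADS34 neighbour each other in the genome, as do MADS13 and MADS33, with 0 genes between them in the gene table used. In each pair 1 gene lay above the reporter range and the other inside it: 7.005 against 5.44, and 7.48 against 5.33.

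Among other regulators of the seed, 3 of 10 listed transcription factors were measured, all above background, and none reached an unadjusted p of 0.05 in limma. NFYB1, an endosperm regulator, had a mean of 10.78 and differed by 2.92 ± 2.81 millionths. VP1, which acts in embryo maturation, had a mean of 8.25 and differed by -33.0 ± 17.8, a value that was positive after both scalings. Of 8 listed chromatin regulators, 3 were measured, and the 1 of Polycomb function, EZ1, lay above background and differed by 2.56 ± 6.74 millionths.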

How the data were processed

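RNA of developing rice seeds was measured on 6 Affymetrix arrays, 3 per group. The authors deposited 1 value per probe set and array, taken here as log2 expression since all lay between 4.96 and 13.51. Their log base, summarization, normalization and genome build are not given in the sources at hand. Of 57381 probe sets, 187 controls were set aside, and all 57194 rice probe sets entered the tests. A linear model compared additional NH4Cl with control in limma 3.58.1 under R 4.3.3 (lmFit, eBayes, no trend, not robust, no block), two-sided, with Benjamini-Hochberg adjustment over all rice probe sets at 0.05. Standard errors are unmoderated. The fit was tested on simulated data.

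Gene names came from the annotation of the platform, joined by gene ID to the gene table of ASM3414082v1: 22436 had 1 gene and 95 several. Names with several MADS numbers were read as MADS7, MADS8 and MADS18, by the number in common use. Classes were assigned by MADS number. Values by array are printed for the 10 members with the highest mean, the B-sister genes and members at an unadjusted p under 0.05, with MADS14 and MADS27 added after their values were seen. RCN1 and IDS1 were dropped from the list of flowering regulators because the gene table gives those names to other kinds of gene. The members and lists were chosen with earlier results of these data known.

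Alternatives were a replicate block, eBayes with trend and robust, unequal variances, quantile normalization, median centring, a filter on level, removal of probe sets that can hybridise with several transcripts, means over the probe sets of a gene, other background limits, and each array left out. Probe sets were counted as able to hybridise with several transcripts when their names ended in _s_at, _x_at or _a_at. These transcripts can be of the same gene. The number of arrays limits the precision.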

Additional observations from a re-analysis of the deposited data

How the results depend on the processing

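The number of genes above background, 18 of 31, was 18 again with each array left out, with control arrays alone, with means over the probe sets of a gene and above the 95th percentile of the reporters; it was 20 above the median of rice probe sets and 12 of 22 without probe sets that can hybridise with several transcripts. The count past the adjusted threshold was 0 with every alternative except median centring, where it was 21, all higher. Centring adds about 123 millionths to every difference, so small negative ones turn positive and positive ones stay positive by construction. The share of all rice probe sets called is not given here for any alternative. The counts under alternatives, adjusted or unadjusted, are therefore not read as a result about the members. At an unadjusted p under 0.05 the count of 3 became 5 after quantile normalization, which were other genes (MADS21, MADS14, MADS7, MADS5 and MADS55, with MADS7 turned from -132 to 1231 millionths), while MADS13, MADS3 and MADS57 had unadjusted p of 0.0876, 0.0538 and 1 in limma there; it became 21 after median centring and 1 of 22 genes without probe sets that can hybridise with several transcripts. With 1 array left out it lay between 2 and 5, the 5 being without additional NH4Cl replicate 2, and adjusted calls stayed at 0. Genes higher numbered 13 as deposited, 27 after median centring, 8 of 20 with dim probe sets removed and 8 of 22 without probe sets that can hybridise with several transcripts; fewer genes tested lower these last 2 counts. Genes lower numbered 18 as deposited, 8 after quantile normalization and 4 after median centring. With 1 array left out, between 10 and 16 were higher and between 15 and 21 lower. With the replicate number as a block, 4 genes had an unadjusted p under 0.05 and 0 passed adjustment (lowest adjusted p of 0.377 in limma); MADS29 had an unadjusted p of 0.00760 there. Over all rice probe sets the same-numbered arrays of the 2 groups had correlations of deviations of -0.0616, 0.0449 and -0.0775, so the numbers were not taken to pair the samples.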
